A study of Homo sapiens with 7 samples.

Results

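The miR-29 family was followed in HepG2, an established human hepatocellular carcinoma line, over 48 h of siRNA treatment directed at TEAD1, a transcription factor through which the Hippo pathway acts on its target genes. The family was taken as 7 mature strands by name: the 3p strands hsa-miR-29a-3p, hsa-miR-29b-3p and hsa-miR-29c-3p, and the 5p strands hsa-miR-29a-5p, hsa-miR-29b-1-5p, hsa-miR-29b-2-5p and hsa-miR-29c-5p, written without the species prefix from here on. All 7 were among the 2652 mature miRNAs counted in each library. The small RNA libraries came from cells given siRNA 2 or siRNA 1 for 24, 36 or 48 h, labelled TEAD1 knockdown, and from untreated cells at 0 h, labelled WT. Each siRNA and time had 1 library and untreated cells had 1, so that 7 libraries were available in all. All cells were grown in serum-containing medium. No cells given a control siRNA are named in the labels, and what transfection, culture time and TEAD1 loss each add cannot be told apart. Small RNA libraries do not measure the mRNA or protein of TEAD1, so the knockdown could not be checked here. Nothing in the labels says that the libraries came from separate cultures, so the p-values measure only the spread between libraries, and that may be technical. In the comparisons by time, siRNA 2 and siRNA 1 stood in as the replicates of a time. Their spread thus also holds any difference between the siRNAs.

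miR-29 is known as a restraint on the extracellular matrix. Its 3p strands are loaded into Argonaute and pair through their seed with mRNAs of collagens, elastin and other matrix proteins, and they are also known to target the DNA methyltransferases DNMT3A and DNMT3B and the survival protein MCL1. In fibrotic liver the family is known to be repressed by TGF-beta in stellate cells, the matrix-producing cells of that organ.

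The 3p strands are shown first because their letters define the family. Capitals mark the seed, bases 2 to 8, and the sequences are those of RefSeq (GRCh38.p14), which matched the sequence column of the count files for all 7 strands.
miR-29a-3p: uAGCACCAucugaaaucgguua
miR-29b-3p: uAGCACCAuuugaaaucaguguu
miR-29c-3p: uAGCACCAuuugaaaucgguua
The 3 strands share the seed AGCACCA, and no other miRNA in the files has it. Counted from 1 at the 5′ end and with miR-29a-3p given first, miR-29c-3p differs from miR-29a-3p by C10U alone. miR-29b-3p differs from miR-29a-3p by C10U, G18A, U21G and A22U and is 1 base longer, at 23 bases against 22. The last 6 bases of miR-29b-3p, AGUGUU, are known as a signal that takes this strand to the nucleus. Only 1 other of the 2652 miRNAs ends in these letters, miR-519e-3p, which had 0 reads in all libraries together. Since miR-29a-3p and miR-29c-3p differ at 1 base, a single miscalled base could move a read between them. How the counting treated mismatches is not given in the sources used here, and values of the scarce miR-29c-3p are uncertain for that reason.

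The 5p strands are shown for contrast, since they do not belong to that seed family.
miR-29a-5p: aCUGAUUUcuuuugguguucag
miR-29b-1-5p: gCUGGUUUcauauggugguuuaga
miR-29b-2-5p: cUGGUUUCacaugguggcuuag
miR-29c-5p: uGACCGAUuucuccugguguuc
Each has a seed of its own that no other miRNA in the files carries. miR-29c-5p alone among them begins with U, as all 3 of the 3p strands do.

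The family comes from a pair of clusters on GRCh38. MIR29A lies at chr7:130876747-130876810 and MIR29B1 at chr7:130877459-130877539, both on the minus strand and 648 bases apart. In GENCODE release 29 both overlap an exon of the long noncoding RNA LINC-PINT, whereas in RefSeq LINC-PINT ends 22 bases short of MIR29B1 and overlaps neither, and the noncoding AC016831.6 (minus strand) and LINC00513 (plus strand) span them outside their exons. MIR29C lies at chr1:207801852-207801939 and MIR29B2 at chr1:207802443-207802523, again on the minus strand and 503 bases apart, and both overlap an exon of MIR29B2CHG. Both MIR29B1 and MIR29B2 yield the same miR-29b-3p, so its reads cannot be assigned to a cluster, whereas the 5p strands of these hairpins differ. The hairpins of miR-29a and miR-29c are given to show the position of the arms, in capitals, with the 5p arm first.
MIR29A: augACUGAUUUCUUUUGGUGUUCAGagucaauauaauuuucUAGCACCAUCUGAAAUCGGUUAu
MIR29C: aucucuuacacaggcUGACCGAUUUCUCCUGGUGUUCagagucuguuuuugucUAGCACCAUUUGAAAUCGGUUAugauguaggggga
The core motif of TEAD factors, GGAATG, was searched on both strands of the windows from 250 bases before to 50 bases after the annotated starts of LINC-PINT and MIR29B2CHG. It was found in 0 of 4 windows of LINC-PINT and 0 of 1 window of MIR29B2CHG, and 14.0% of all 35116 promoter windows hold it. These windows do not cover enhancers or other starts.

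Reads given to miRNAs numbered 1920832 to 3739729 per siRNA-treated library and 6171851 in the untreated library, out of 13134601 to 15591345 reads in all. Levels are given in CPM, that is, reads scaled to the TMM-adjusted size of the miRNA library. On the first principal component of log2 CPM, which held 63.1% of the variance, both 48 h libraries (10.8 for siRNA 2 and 10.6 for siRNA 1) and the 36 h library of siRNA 2 (14.05) stood apart from the other 4 (-9.49 to -7.86). The 36 h pair thus fell on opposite sides and accounted for 72.0% of the squared deviations between libraries of 1 time. The 36 h labels were taken as given, and whether they are right was not tested. Because of this, several of the edgeR results that rest on the 36 h libraries are given with and without them. Others, such as the SDs, the likeness of courses and the summed levels, are given with them only. Of the hepatocyte markers, miR-122-5p stood at 3.76 to 47.6 CPM in siRNA-treated cells and 45.5 CPM in untreated cells, while miR-192-5p stood at 1710 to 3066 and 2480 CPM. Among the muscle markers, miR-1-3p stood at 867 CPM with siRNA 1 at 36 h and at 20.7 to 52.4 CPM in the other 6 libraries.

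miR-29a-3p carried most of the family's reads. At 0 h it stood at 1390 CPM (7454 reads, 95% exact Clopper-Pearson interval 1359 to 1422 CPM). In cells given siRNA 2 the level was 1751 CPM at 24 h, 1508 CPM at 36 h and 1879 CPM at 48 h, and in cells given siRNA 1 it was 1658, 1747 and 1834 CPM in the same order. On this scale all 6 siRNA-treated libraries lay above the lone untreated library, and the highest level was only 1.35 times the lowest. The share of all tested miRNAs with all 6 on 1 side of untreated cells was not counted. It ranked 46th to 57th among the miRNAs of a library. Its log2 CPM had an SD of 0.16 over the 7 libraries, smaller than that of all but 7.25% of the 276 miRNAs that averaged 50 or more reads. The intervals and all others given here cover counting error only, since the reads carry no molecular identifiers.

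miR-29b-3p, with the same seed, varied far more. At 0 h it stood at 387 CPM (2075 reads, interval 371 to 404). For siRNA 2 the level was 1277 CPM at 24 h, 76.4 CPM at 36 h and 148 CPM at 48 h, while siRNA 1 gave 409, 571 and 159 CPM at these times. The 3 lowest values were those of siRNA 2 at 36 h and of both 48 h libraries, and the highest, with siRNA 2 at 24 h, was 16.7 times the lowest. Its SD of 1.37 on the log2 scale exceeded that of 95.7% of the 276 miRNAs. The 3 libraries with the lowest values are those at the positive end of the first principal component.

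miR-29c-3p, the third strand with this seed, was scarce. At 0 h it had 37 reads (6.90 CPM, interval 4.86 to 9.51). The times 24, 36 and 48 h gave 30.5, 3.30 and 10.02 CPM for siRNA 2, on 73, 8 and 24 reads, and 13.3, 14.7 and 7.86 CPM for siRNA 1, on 45, 29 and 18 reads. As for miR-29b-3p, the highest value was siRNA 2 at 24 h and the lowest siRNA 2 at 36 h. Its reads came to 0.219 to 1.74 per 100 reads of miR-29a-3p over the 7 libraries.

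**Figure D1:**
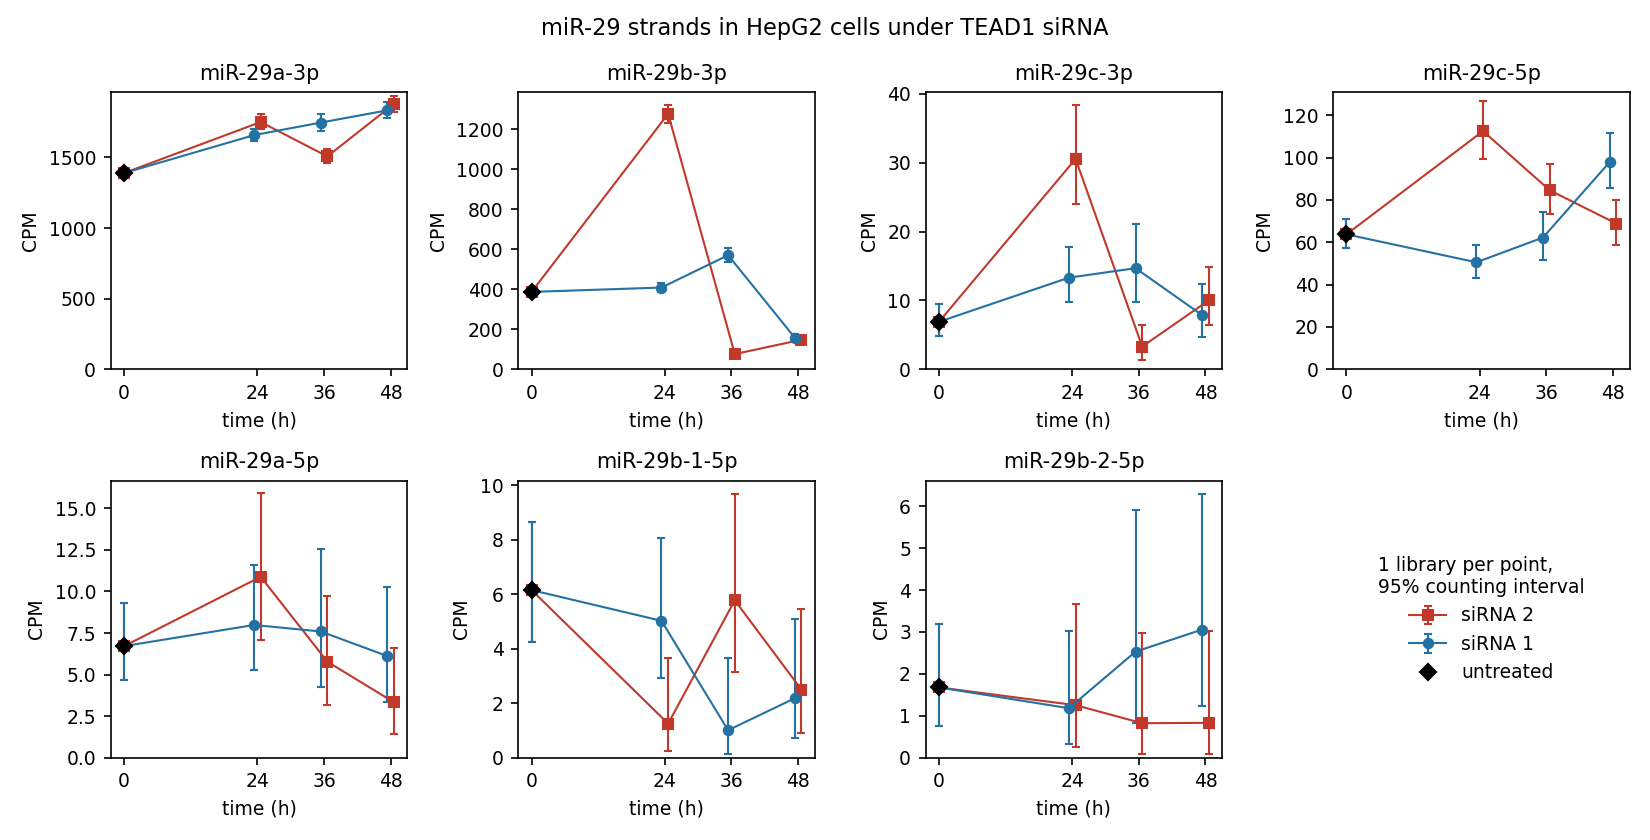
Level of each miR-29 strand in CPM (vertical axis, from 0) against time of treatment in hours; red squares are siRNA 2, blue circles siRNA 1 and the black diamond the untreated library, and bars are 95% counting intervals of a single library. miR-29a-3p stays between 1390 and 1879 CPM, while miR-29b-3p spans 76.4 to 1277 CPM and both of its 48 h values lie below 387 CPM.

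The 5p arms showed a different balance for miR-29c than for the rest of the family. miR-29c-5p had 123 to 269 reads per siRNA-treated library and 342 reads in untreated cells, more than miR-29c-3p in 7 of 7 libraries. The 3p arm made up 3.76% to 21.3% of the reads of this hairpin in siRNA-treated cells and 9.76% in untreated cells (interval 6.97% to 13.2%). For miR-29a the 3p arm made up 99.4% to 99.8% in siRNA-treated cells and 99.5% in untreated cells, and for miR-29b, with both hairpins summed, 92.04% to 99.8% and 98.02%. In these counts the capital arms of the hairpins printed above are thus read in opposite proportion in MIR29C and MIR29A. The miR-29c balance rests on 8 to 73 reads of miR-29c-3p per library, a strand 1 base from miR-29a-3p. Whether reads of it were counted as miR-29a-3p was not tested.

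**Figure D2:**
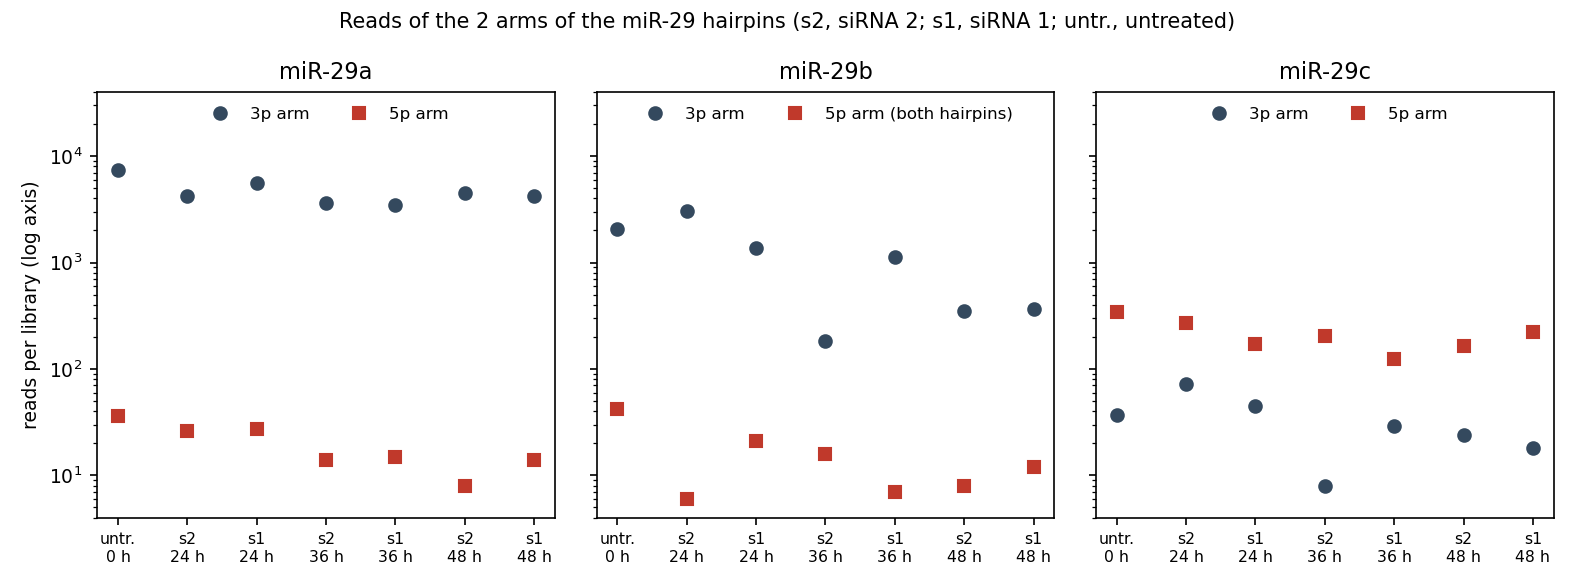
Reads per library (log axis) of the 3p arm (dark circles) and the 5p arm (red squares) of miR-29a, miR-29b and miR-29c in the 7 libraries. The 3p arm lies above the 5p arm for miR-29a and miR-29b in every library, and below it for miR-29c, where untreated cells have 37 reads of the 3p arm and 342 of the 5p arm.

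Of the remaining strands, miR-29c-5p had levels of 113, 84.6 and 68.9 CPM for siRNA 2 at 24, 36 and 48 h, of 50.6, 62.3 and 97.9 CPM for siRNA 1, and of 63.8 CPM in untreated cells. The order of the times was thus opposite for the siRNAs, with 24 h highest for siRNA 2 and lowest for siRNA 1, on single libraries. miR-29a-5p had 8 to 27 reads per siRNA-treated library (3.34 to 10.9 CPM) and 36 in untreated cells (6.71 CPM). miR-29b-1-5p, from the chromosome 7 cluster, had 2 to 17 reads (1.01 to 5.78 CPM) and 33 (6.15 CPM). It lay below untreated in 6 of 6 libraries, again without a count of how many other miRNAs did so. miR-29b-2-5p, from the chromosome 1 cluster, had 2 to 7 reads (0.826 to 3.06 CPM) and 9 (1.68 CPM). The upper limit for a strand with 0 reads, 3 reads, corresponds to 0.887 to 1.52 CPM in siRNA-treated libraries and 0.560 CPM in the untreated one, and the intervals of miR-29b-2-5p in all 6 siRNA-treated libraries overlapped that of untreated cells, so that no difference was detectable at this depth. With siRNA 2 at 24 h, where miR-29b-3p was highest, both 5p strands of miR-29b had 3 reads, too few to compare their course with that of miR-29b-3p.

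The make-up of the 3p reads differed between libraries, chiefly through miR-29b-3p. miR-29a-3p made up 57.2%, 94.98% and 92.3% of the reads of the 3 strands with siRNA 2 at 24, 36 and 48 h, and 79.7%, 74.9% and 91.7% with siRNA 1, against 77.9% in untreated cells (interval 77.1% to 78.7%). Reads of miR-29b-3p per 100 reads of miR-29a-3p numbered 73.0, 5.06 and 7.86 with siRNA 2, 24.7, 32.7 and 8.65 with siRNA 1 and 27.8 in untreated cells. This ratio is taken within a library and needs no scale factor.

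**Figure D3:**
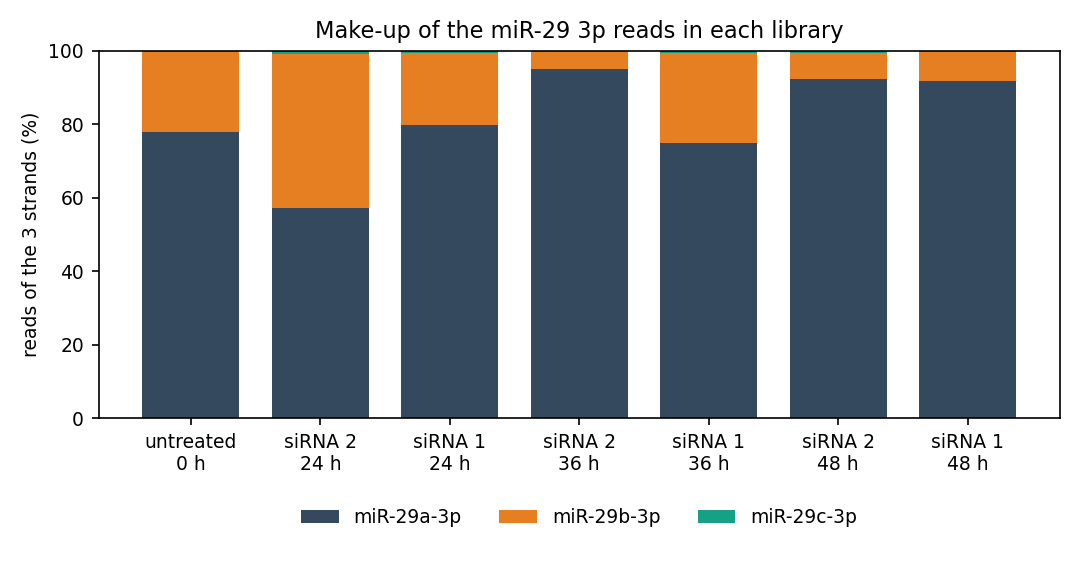
Share of the reads of the 3 strands with the miR-29 seed (vertical axis, %, stacked) taken by miR-29a-3p, miR-29b-3p and miR-29c-3p in each of the 7 libraries. The miR-29b-3p share is 7.25% and 7.93% at 48 h, 4.81% with siRNA 2 at 36 h, and 19.7% to 41.8% in the other 4 libraries.

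The first comparison set the family in siRNA-treated cells of all 3 times against untreated cells. Of the 7 strands 6 averaged 10 or more reads and were tested, all but miR-29b-2-5p, and none passed edgeR's quasi-likelihood test at a Benjamini-Hochberg adjusted p of 0.05 over 458 miRNAs. Over all tested miRNAs 0% passed. At an unadjusted p under 0.05 there were 0 of the 6 strands and 23 of the 458, and DESeq2 and limma-voom also called 0 of the 6, where DESeq2 called 0.218% of all. Without both 36 h libraries 0 of the 6 passed edgeR, where 10.7% of 467 miRNAs passed. miR-29a-3p averaged 1730 ± 133 CPM (SD, n = 6) in siRNA-treated cells and 1390 CPM in untreated cells, which edgeR fitted as a log2 fold change of 0.31 ± 0.25 (SE; adjusted p = 0.899). miR-29b-3p averaged 440 ± 451 CPM and 387 CPM, above untreated in 3 of 6 libraries, and its log2 fold change of -0.16 ± 0.93 was on the other side of 0 with total miRNA counts as the scale (0.047). The fitted log2 fold changes were 0.79 ± 0.82 for miR-29c-3p (above untreated in 5 of 6), 0.31 ± 0.49 for miR-29c-5p (4 of 6) and -1.03 ± 0.82 for miR-29b-1-5p (0 of 6). Scaling by all reads of a library moved the median of the 458 miRNAs to -1.13 and that of miR-29a-3p to -0.78, and total miRNA counts moved the median to 0.19.

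Added together, the 3 strands with the miR-29 seed came to 3059, 1587 and 2037 CPM for siRNA 2 at 24, 36 and 48 h, to 2081, 2332 and 2000.3 CPM for siRNA 1 and to 1784 CPM in untreated cells. The mean log2 difference of siRNA-treated from untreated cells was 0.26, with a two-sided exact permutation p of 0.429, where the smallest p that 6 libraries against 1 allow is 0.143. With total miRNA counts as the scale it was 0.50, with untreated cells lowest of the 7 libraries, and with all reads it was -0.84, with untreated cells highest (exact permutation p = 0.143 for each, the smallest possible). The share of miR-29a-3p was 3.87 percentage points higher on average in siRNA-treated cells (exact permutation p = 0.857), and 8.78 points higher without siRNA 2 at 24 h, 1.24 points without siRNA 2 at 36 h, 1.90 points without siRNA 1 at 48 h and 1.78 points without siRNA 2 at 48 h. The siRNA-treated values lay on both sides of untreated for the share and, on the TMM scale, for the summed level.

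Time by time, miR-29b-3p lay on different sides of untreated cells. At 24 h both libraries lay above untreated, with a log2 fold change of 1.12 ± 1.13 (SE), but the interval of siRNA 1 (388 to 431 CPM) overlapped that of untreated cells (371 to 404 CPM). At 36 h siRNA 2 lay below and siRNA 1 above untreated, and the log2 fold change was -0.26 ± 1.06. At 48 h both lay below, at -1.34 ± 1.04. None of the 6 strands passed edgeR at any of the 3 times (adjusted p for miR-29b-3p 0.997, 0.980 and 0.547), 0% of all tested miRNAs passed, and 11, 19 and 53 of 458 had an unadjusted p under 0.05. DESeq2 called 0 of the 6 at each time, where it called 0.218% of all at 24 h, 1.53% at 36 h and 2.62% at 48 h, and limma-voom called 0. At 48 h at least, DESeq2 gave some low-count miRNAs no adjusted p. The 2.62%, taken over all 458, is thus too low as a share of those adjusted, and the 6 may include strands not adjusted. miR-29a-3p stood at 0.29 ± 0.28 at 24 h and 0.42 ± 0.28 at 48 h, and lay above untreated in both libraries of every time, but with all reads as the scale these values were -0.64 and -0.70. miR-29c-3p stood at 1.65 ± 0.93 at 24 h.

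Without both 36 h libraries miR-29b-3p rose by 1.19 ± 0.30 on the log2 scale at 24 h (edgeR adjusted p = 0.00421) and fell by 1.29 ± 0.28 at 48 h (adjusted p = 3.9e-05). None of the other 5 strands passed in that fit at 24 or 48 h, where 2.78% of the 467 miRNAs passed at 24 h (1.93% higher, 0.857% lower) and 25.1% at 48 h (9.64% higher, 15.4% lower). The rise at 24 h did not pass with total miRNA counts (1.11, adjusted p = 0.236), with a linear trend in GC content removed (1.17, adjusted p = 0.0907) or with all reads (0.020, adjusted p = 0.974), and in the fit of all libraries but siRNA 2 at 24 h the log2 fold change at 24 h was 0.067. The fall at 48 h passed with all reads (-2.46) but not with total miRNA counts (-0.98, adjusted p = 0.0504) or with the GC trend removed (-0.69, adjusted p = 0.144). With these last settings miR-29a-3p passed in its place, higher by 0.78 (adjusted p = 0.0445) and 0.88 (adjusted p = 0.0156). These fits drop the pair with the widest spread, and if that spread is real their p-values come out too low. Their SEs and p-values also follow in effect a spread pooled over miRNAs, not that of miR-29b-3p itself. With siRNA 2 as the lone 36 h library miR-29b-3p fell by 2.31 on the log2 scale (edgeR adjusted p = 0.00166), among the 19.8% of miRNAs called, and with siRNA 1 as the lone one it stood at 0.56 (adjusted p = 0.528), where a time with 1 library borrows its spread from the rest.

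A comparison within siRNA-treated cells, 48 h against 24 h, does not involve the untreated library. miR-29b-3p stood at 148 and 159 CPM at 48 h with siRNA 2 and siRNA 1, and at 1277 and 409 CPM at 24 h. The groups did not overlap, but the share of all 458 miRNAs whose groups also did not overlap was not counted. edgeR fitted a log2 fold change of -2.46 ± 0.93 (SE; adjusted p = 0.250, unadjusted 0.0332), where 0% of 458 miRNAs passed. miR-29c-3p stood at 10.02 and 7.86 CPM at 48 h and 30.5 and 13.3 CPM at 24 h (-1.28 ± 0.74, adjusted p = 0.390). miR-29a-5p stood at 3.34 and 6.12 CPM at 48 h and 10.9 and 7.98 CPM at 24 h (-0.99 ± 0.53, adjusted p = 0.357). miR-29a-3p (0.12 ± 0.23), miR-29c-5p (0.03 ± 0.45) and miR-29b-1-5p (-0.47 ± 0.95) had adjusted p-values of 0.795 to 0.975. edgeR called 0 of the 6 with 1 at an unadjusted p under 0.05 (84 of all 458), and limma-voom called 0. DESeq2 called miR-29b-3p, which fell by 2.46 (adjusted p = 0.0318), among the 4.59% of miRNAs it called (1.31% higher, 3.28% lower). These shares are of all 458. DESeq2 gave some low-count miRNAs no adjusted p, so they are too low as shares of the miRNAs it adjusted. Without siRNA 2 at 24 h the edgeR value of miR-29b-3p was -1.36 (adjusted p = 0.619).

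In the fit without both 36 h libraries 2 of the 6 strands fell, where 17.8% of 467 miRNAs fell and 10.9% rose, 28.7% in all. miR-29b-3p fell by 2.48 ± 0.25 (edgeR adjusted p = 4.5e-21) and miR-29c-3p by 1.29 ± 0.45 (adjusted p = 0.0169). The SEs and p-values of this fit follow in effect a spread pooled over miRNAs. They do not measure that of miR-29b-3p itself, whose 24 h libraries stood at 1277 and 409 CPM. For 2 libraries against 2, an exact permutation test cannot give a p below 0.333. Without the 36 h pair miR-29b-3p passed with total miRNA counts (-2.09), all reads (-2.48) and the GC trend removed (-1.86, adjusted p = 4.6e-06) as well. miR-29c-3p did not, at -0.91 with total miRNA counts (adjusted p = 0.108), -1.34 with all reads (adjusted p = 0.0864) and -0.71 with the GC trend removed (adjusted p = 0.254). miR-29a-3p, at 0.11 ± 0.21, did not pass, and with the GC trend removed it stood at 0.55 (adjusted p = 0.0486). miR-29b-3p has a GC content of 34.8%, miR-29c-3p of 36.4% and miR-29a-3p of 40.9%, all under the median of 50% of the tested miRNAs.

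**Figure D4:**
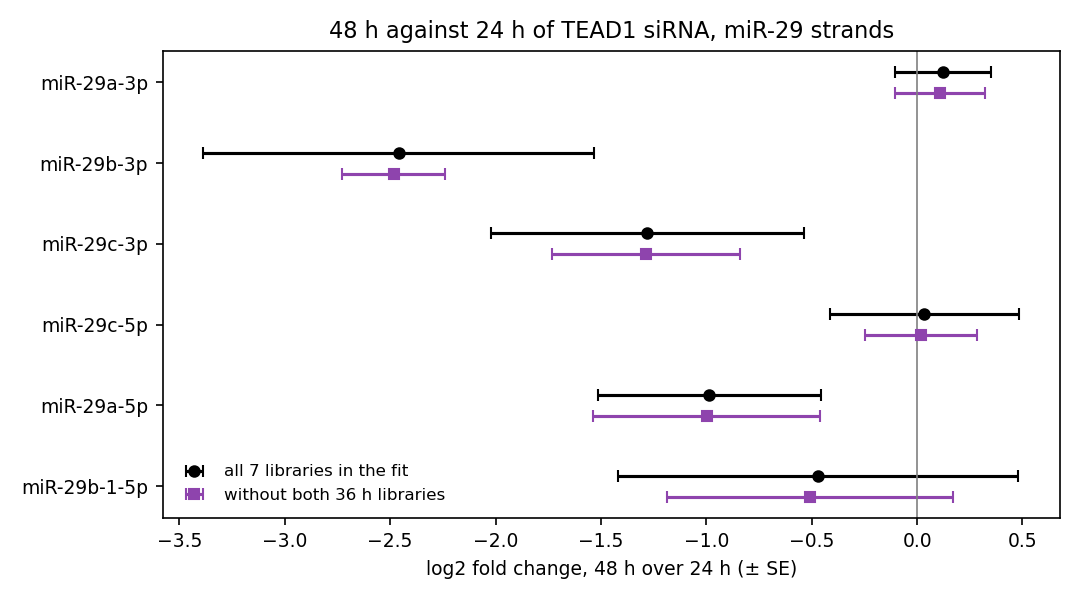
log2 fold change of 48 h over 24 h (horizontal axis, with SE bars) for the 6 tested miR-29 strands, from the fit of all 7 libraries (black circles) and without both 36 h libraries (purple squares). miR-29b-3p lies at -2.46 and -2.48, miR-29c-3p at -1.28 and -1.29, and miR-29a-3p and miR-29c-5p near 0.

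The mean log2 level of the summed 3p strands at 48 h minus that at 24 h was -0.32 (two-sided exact permutation p = 0.333, the smallest that 2 against 2 allow), and 0.021 with total miRNA counts as the scale. Without siRNA 2 at 24 h the difference was -0.044, and without siRNA 1 at 24 h it was -0.60. The share of miR-29a-3p was 91.97% at 48 h and 68.5% at 24 h on average, a difference of 23.5 percentage points (exact permutation p = 0.333). Without siRNA 2 at 24 h that difference was 12.3 points.

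The siRNAs were compared over the 3 times with time as a factor. Of the 5 strands that averaged 10 or more reads in these 6 libraries none passed edgeR, where 0% of 435 miRNAs passed, with 0 of the 5 and 6 of the 435 at an unadjusted p under 0.05. DESeq2 and limma-voom called 0 as well. miR-29b-3p averaged 501 ± 674 CPM (SD, n = 3) with siRNA 2 and 379 ± 208 CPM with siRNA 1, while its fitted log2 fold change was -0.34 ± 0.88. It was on the other side of 0 without the 36 h libraries (0.89 ± 0.29, adjusted p = 0.780). siRNA 2 was above siRNA 1 at 24 h and below it at 36 h. At 48 h their intervals overlapped, at 133 to 164 CPM with siRNA 2 and 143 to 176 CPM with siRNA 1. miR-29a-3p averaged 1713 ± 189 CPM with siRNA 2 and 1746 ± 88 CPM with siRNA 1.

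Across the 7 libraries, the miRNAs whose course was most like that of each 3p strand were named by the root mean square difference of log2 CPM, each centred on its own mean, among 273 miRNAs averaging 50 or more reads. For miR-29a-3p they were miR-95-3p (0.07), let-7c-5p (0.12) and the H19-derived miR-675-3p (0.12), against a median of 0.38 over all candidates. For miR-29b-3p they were miR-590-3p (0.48), miR-582-3p (0.51) and miR-19b-3p (0.53), against a median of 1.29. For miR-29c-3p they were miR-16-5p (0.48), miR-769-5p (0.48) and miR-30b-5p (0.54), against 0.92. Between the strands themselves the difference was 1.27 for miR-29a-3p and miR-29b-3p, 0.80 for miR-29a-3p and miR-29c-3p and 0.64 for miR-29b-3p and miR-29c-3p. miR-590-3p, from another hairpin, was picked as the closest of 273 candidates, so its smaller difference cannot be set against that of the strands sharing the seed. miR-29c-3p, at 33.4 reads on average, would not have been a candidate.

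**Figure D5:**
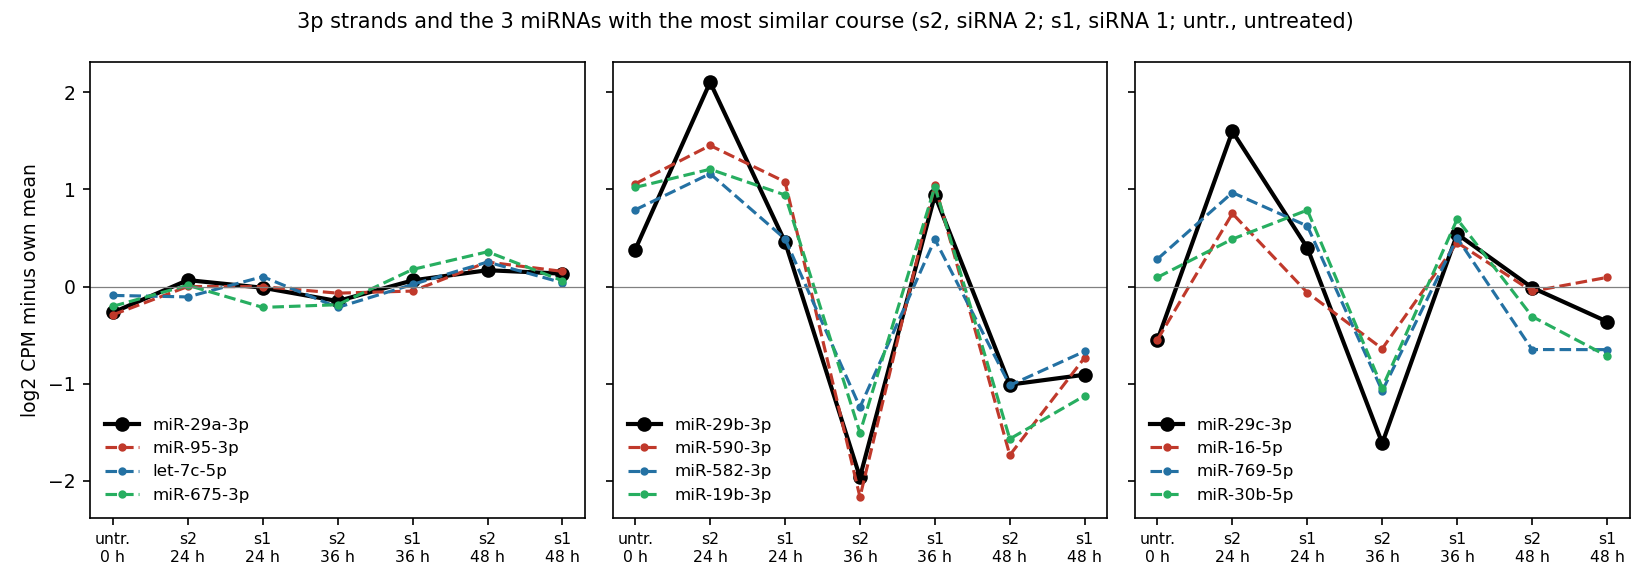
log2 CPM minus its own mean over the 7 libraries (vertical axis) for each 3p strand (black) and the 3 miRNAs with the smallest root mean square difference from it (dashed). The miR-29b-3p panel shows the same low libraries, siRNA 2 at 36 h and both 48 h libraries, for miR-590-3p, miR-582-3p and miR-19b-3p, while the miR-29a-3p panel is nearly flat.

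The miR-29 strands were then set beside a list of 20 miRNAs linked to matrix and fibrosis, of which 16 were tested and several also stand in the cell marker lists. For 48 h against 24 h 0 of them passed edgeR in the fit of all 7 libraries, with 5 at an unadjusted p under 0.05, against 84 of all 458. DESeq2 called 1 of them higher and 2 lower, against 6 and 15 of all 458, with some low-count miRNAs left without an adjusted p. Their median log2 fold change was 0.13, against 0.03 over all 458. The 5 most abundant were miR-21-5p, a miRNA raised in fibrotic tissue (-0.55 ± 0.30), miR-26a-5p (0.13 ± 0.23), miR-30c-5p (-0.02 ± 0.27), miR-221-3p (-0.49 ± 0.23) and miR-222-3p (0.94 ± 0.39). Without the 36 h libraries 8 of 14 tested passed, or 57.1%, against 28.7% of all tested miRNAs. On the higher side were miR-143-3p (1.19 ± 0.25), miR-192-5p (0.55 ± 0.21), miR-200b-3p (2.03 ± 0.51) and miR-222-3p (0.92 ± 0.21). On the lower side were miR-101-3p, known for repressing the histone methyltransferase EZH2 (-2.95 ± 0.23), miR-122-5p, the main hepatocyte miRNA (-2.22 ± 0.47), miR-19b-3p (-2.43 ± 0.28) and miR-21-5p (-0.57 ± 0.20). With total miRNA counts 4 of the 14 rose and 3 fell, where 105 of all 467 rose and 55 fell. With all reads 1 rose and 3 fell, where 7 of the 467 rose and 52 fell. The median of all tested miRNAs was 0.34 on the first of these scales and -0.16 on the second.

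Markers of other cells differed between the same libraries. The 6 markers of fibroblasts, smooth muscle and endothelium summed to 458 CPM in untreated cells at 0 h, 442 to 505 CPM at 24 h, 1065 to 1068 CPM at 36 h and 837 to 840 CPM at 48 h, with miR-214-3p at 0 in 5 of the 6 siRNA-treated libraries. Within this sum miR-143-3p stood at 159 CPM in untreated cells and, at 36 h, at 708 CPM (siRNA 2) and 746 CPM (siRNA 1). miR-126-3p stood at 294, 337 and 300 CPM in the same order. The 6 blood cell markers summed to 15.7 CPM at 0 h, and with siRNA 2 and siRNA 1 to 15.5 and 15.7 CPM at 24 h, 78.01 and 25.3 CPM at 36 h and 35.06 and 46.8 CPM at 48 h. Of these, miR-451a alone made up 73.1 CPM with siRNA 2 at 36 h, and miR-223-3p was at 0 in all libraries. The 5 muscle markers summed to 881 CPM with siRNA 1 at 36 h, 21.6 to 53.2 CPM with the remaining siRNA treatments and 24.06 CPM in untreated cells, with 1 to 3 of them at 0. The 3 hepatocyte markers summed to 2599 CPM at 0 h, and with siRNA 2 and siRNA 1 to 1947 and 2299 CPM at 24 h, 3100.3 and 1893 CPM at 36 h and 3012 and 3155 CPM at 48 h. Nearly all of the hepatocyte sum was miR-192-5p, at 3003 CPM with siRNA 2 at 36 h. The 3 libraries low in miR-29b-3p had the 3 highest sums of the blood cell and hepatocyte lists. The fibroblast and muscle lists did not follow this: siRNA 1 at 36 h, at 1065 and 881 CPM, lay above both 48 h libraries. miR-122-5p, the defining hepatocyte miRNA, was low in the 3 libraries, at 6.60 CPM in the 36 h library of siRNA 2. At 48 h it stood at 3.76 CPM (siRNA 2) and 4.37 CPM (siRNA 1), against 45.5 CPM in untreated cells. It was also low with siRNA 2 at 24 h, at 4.60 CPM, where miR-29b-3p was highest. The part of these markers in the levels of miR-29b-3p was not tested. In such bulk libraries fewer cells of a type and less RNA per cell cannot be told apart.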

How the data were processed

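Per the labels' protocols, total RNA from HepG2 cells was made into libraries with a NEB small RNA kit. What the authors deposited is a raw count of reads for every mature miRNA. The sources used here do not name an aligner, a counter or a build. Reads of the summary lines entered library sizes only where all reads were the scale. Those given to no feature made up 73.5% to 86.6% of siRNA-treated libraries and 56.9% of the untreated library. The quasi-likelihood test of edgeR 4.0.16 ran in R 4.3.3, with TMM scaling, over 458 miRNAs whose counts averaged 10 or more, adjusted by Benjamini-Hochberg at 0.05. Untreated cells and the 3 times entered 1 fit, which takes the single untreated library to vary as the siRNA-treated ones do. The comparison of siRNA 2 with siRNA 1 used 435 miRNAs. Standard errors follow from the F statistic. log2 CPM used a prior count of 2. Summed levels and shares were tested by exact permutation, and intervals are at 95% (scipy 1.17.1). Alternatives were DESeq2 1.42.0, limma-voom (limma 3.58.1), other scales, other count filters, libraries left out and the siRNA number as a block. Removal of a GC trend, and other scales without the 36 h libraries, were chosen after seeing the data. Beside the members, the 3 miRNAs closest in course to each 3p strand, the 5 most abundant and all passing members of the fibrosis list, and the cell type markers were to be named. miR-519e-3p was named after its reads were seen. The members and lists were chosen with earlier results of these data known. The scripts were tested on simulated counts.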

Additional observations from a re-analysis of the deposited data

Results flagged for a closer look

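Between 48 h and 24 h, miR-29b-3p lay on opposite sides of untreated cells: both 48 h libraries were below and both 24 h libraries above, a difference in mean log2 ratio of -2.24. The edgeR contrast of 48 h with 24 h, which tests that difference, gave an adjusted p of 0.250 in the fit of all libraries. The 24 h side rests on siRNA 2, at 1277 CPM: siRNA 1 at 24 h stood at 409 CPM (interval 388 to 431) against 387 CPM (371 to 404) in untreated cells, and per 100 reads of miR-29a-3p it had 24.7 reads of miR-29b-3p against 27.8. miR-29a-5p showed the same arrangement on 8 to 27 reads per library, with a difference of -1.04 (edgeR adjusted p = 0.357). The interval of each of these 4 libraries overlapped that of untreated cells (4.70 to 9.30 CPM), so its side of untreated is uncertain. Both libraries of each time share the same lone untreated library, so an error in its value moves all 4 ratios together. Only the miR-29 strands were searched for this arrangement, so its share among all tested miRNAs is not known.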

How the results depend on the processing

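No strand was called by edgeR in the fit of all libraries, and the count depended most on the 36 h pair. Without both 36 h libraries the strands called numbered 1 at 24 h and 1 at 48 h against untreated cells and 2 for 48 h against 24 h, and the 36 h comparison could not be fitted. Leaving out 1 library at a time gave 0 to 1 at each time against untreated cells and 0 to 2 for 48 h against 24 h. For 48 h against 24 h, DESeq2, all reads as the scale and no filter on low counts each called 1. All reads as the scale called 1 over all times (miR-29b-1-5p) and 1 at 48 h, and without the 36 h libraries 2, 2 and, for 48 h against 24 h, 1. Total miRNA counts without the 36 h libraries called 1 at 48 h and 1 for 48 h against 24 h, and the GC trend removed without them called 1 and 2. Over all tested miRNAs edgeR called 0 in each comparison, DESeq2 called 1 over all times, 1, 7 and 12 at 24, 36 and 48 h, and 21 for 48 h against 24 h, no filter on low counts gave 12, 2, 10, 39 and 51, all reads as the scale gave 120, 2, 49, 118 and 29, and leaving out both 36 h libraries gave 50 over all times, 13 at 24 h, 117 at 48 h and 134 for 48 h against 24 h. Without the 36 h libraries, at 48 h and for 48 h against 24 h, total miRNA counts called 115 and 160 of 467, the GC trend removed 95 and 131, and all reads 185 and 59 (196 over all times). The settings that join a scale or the GC trend with the left-out pair, and the GC trend itself, were chosen after seeing the data.

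With all reads as the scale miR-29a-3p reversed to -0.78 over all times, -0.64 at 24 h, -0.70 at 48 h and -0.055 for 48 h against 24 h, and to -0.67, -0.64, -0.70 and -0.055 without the 36 h libraries. On that scale miR-29c-3p stood at -0.36 and miR-29c-5p at -0.81 over all times (-0.063 and -0.72 without 36 h), and the summed 3p level at -0.84. This scale differs by construction, since the miRNA share of reads was 13.4% to 26.5% in siRNA-treated and 43.1% in untreated libraries. miR-29b-3p over all times reversed to 0.047 with total miRNA counts (0.067 without 36 h), to 0.12 with the GC trend removed (0.24 without 36 h), and to 0.041 and 0.11 without siRNA 1 at 24 h and siRNA 2 at 36 h, in a range of -0.82 to 0.11 over single libraries left out. At 36 h it was 0.0076 with total miRNA counts and -2.31 to 0.56 with 1 library left out. For siRNA 2 against siRNA 1 it reversed to 0.84 and 0.87 without 1 of the 36 h libraries (range -1.47 to 0.87 with 1 library left out), 0.89 without both, 0.43 with no time factor, and 0.88, 0.79 and 0.52 without both and with the GC trend removed, total miRNA counts or all reads. For 48 h against 24 h, miR-29b-1-5p was 0.88 without siRNA 1 at 24 h (range -1.03 to 0.88). miR-29c-5p was -0.042 with all reads with or without the 36 h pair, -0.016 at a mean count of at least 50, and -0.44 and -0.24 without siRNA 1 at 24 h and at 48 h (range -0.44 to 0.77). The summed 3p level at 48 h against 24 h was 0.021 with total miRNA counts. The cause of these changes was not tested.

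The siRNA number does not pair the libraries as replicates: same-numbered libraries had correlations of their deviations of 0.096, -0.251 and -0.158 between the times. With the replicate block 0 strands were called in every comparison fitted with it. Read counts limit the 5p strands of miR-29b most, then miR-29a-5p and miR-29c-3p.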
